A study of Mus musculus with 12 samples.

Results

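The 10 genes described here, Ccr2, Itgax, Mpeg1, Trem2, Gpnmb, Atp6v0d2, Cd63, Cd9, Lgals3 and Spp1, are often read in liver as signs of macrophages that have entered from blood or that handle large amounts of lipid. They were chosen by name, as the rows of the count table that carry these 10 symbols among 55421 rows. All 10 passed the filter on low counts, which kept 14076 rows. RNA came from whole liver of adult male C57BL/6 mice of 2 strains, Fra1hep and Fra2hep, each with 3 mutants and 3 littermate controls, so 12 libraries in 4 groups. The mutants carry a transgene for Fra-1 (gene Fosl1) or Fra-2 (gene Fosl2), subunits of the transcription factor AP-1. Doxycycline was withdrawn from mutants and controls alike at weaning, 3 weeks after birth, which switches the transgene on in the mutants. Titles and design text put sampling 2 months later in every group, but the treatment label of the 3 Fra2 mutants says 9 months where that of their controls says 2, and age and genotype cannot be told apart in that comparison if that label holds. The promoter that drives the transgene was not given in the sources used here, and the tissue is labelled as mostly hepatocytes.

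A lipid-associated macrophage is a phagocyte found around dying, lipid-laden cells in fatty liver, atherosclerotic plaque and obese fat. Monocytes follow chemokines out of the blood through the receptor CCR2, settle, and can switch on receptors for lipids and dead cells, such as TREM2, together with an enlarged lysosomal system acidified by the vacuolar proton pump. None of the 10 genes is restricted to these cells. Spp1 and Cd9 are also made by bile duct cells, Lgals3 and Cd63 by many cell types, and Atp6v0d2 by osteoclasts and kidney cells. In liver RNA as a whole, fewer cells of a type and less RNA per cell cannot be told apart.

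Of the 10 genes, Mpeg1 and Atp6v0d2 were those that passed edgeR's test in 1 strain or both. In Fra1 mutants Mpeg1, a pore-forming protein of macrophages, rose 2.24-fold and Atp6v0d2, a subunit of the proton pump, rose 83.7-fold. In Fra2 mutants Mpeg1 rose 2.85-fold, and Atp6v0d2 stood 11.7-fold higher without passing the test. Cd63 stood 4.80-fold higher in Fra1 mutants and 3.41-fold in Fra2 mutants, and Lgals3 6.54-fold and 2.82-fold, also without passing it. The genes after which recruited and lipid-associated macrophages are best known, Ccr2, Itgax, Trem2, Gpnmb and Spp1, did not pass the test in either strain. By edgeR's quasi-likelihood test with Benjamini-Hochberg adjustment over all 14076 genes, 2 of the 10 genes were called higher in Fra1 mutants, where 2.90% of all genes were, and 1 of the 10 in Fra2 mutants, where 0.845% of all genes were. DESeq2 called 4 and 2 of them, adding Cd63 and Lgals3 in Fra1 mutants and Atp6v0d2 in Fra2 mutants. It also called more of all genes. Of 14069 genes, DESeq2 called 678 higher and 343 lower in Fra1, where edgeR called 408 and 132. In Fra2 it called 315 and 133, where edgeR called 119 and 31.

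Libraries held 16834041 to 20464807 counts. Fosl1 had 172, 193 and 252 counts in the Fra1 mutants against 0, 0 and 1 in their controls, and Fosl2 had 6821, 7718 and 8101 in the Fra2 mutants against 221, 861 and 297 in theirs, so the targeted transcripts followed the labels. Of the macrophage and Kupffer cell markers used for comparison, every one was detected in each group. The summed level of 10 hepatocyte markers ran from 58774 to 73144 CPM (counts scaled by effective library size) in Fra2 mutants and from 103953 to 128748 in their controls, and from 53886 to 107357 in Fra1 mutants against 84894 to 122881. In Fra2 the lowest of these 10 were Apoa1 and Alb, with log2 fold changes of -1.17 ± 0.33 (adjusted p = 0.145) and -1.05 ± 0.29 (adjusted p = 0.133), while the median was -0.02 and 5 of the 10 lay above 0. In Fra1 2 of the 10, Hnf4a and Cps1, lay above 0, and the median was -0.34. Both were higher without overlap, as were 11.7% of all genes, and 2 others were lower without overlap, as were 10.0%. In Fra2 3 of the 10 were lower without overlap, where 8.18% of all genes were, and 0 were higher, where 9.29% were. Whether this shift in hepatocyte transcripts has a part in the values below was not tested.

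Promoter windows, from 250 bases before to 50 after each RefSeq start site (build GRCm38.p6), matched 9 of the 10 genes in 10 windows, all but Atp6v0d2. They were searched on both strands for the AP-1 element TGACTCA, for the related element TGACGTCA, and for GAGGAA, a core bound by the myeloid factor PU.1. These 3 motifs do not overlap one another in any of the windows. The promoters shown are 3, because those of Gpnmb and Itgax, hold the AP-1 element and that of Mpeg1, the gene called in both strains, holds none of the 3. Capitals mark the element, which reads TGAGTCA where it lies on the other strand. The windows are chr6:49036268-49036567, chr7:128129300-128129599 and chr19:12460520-12460819, all on the plus strand.
Gpnmb: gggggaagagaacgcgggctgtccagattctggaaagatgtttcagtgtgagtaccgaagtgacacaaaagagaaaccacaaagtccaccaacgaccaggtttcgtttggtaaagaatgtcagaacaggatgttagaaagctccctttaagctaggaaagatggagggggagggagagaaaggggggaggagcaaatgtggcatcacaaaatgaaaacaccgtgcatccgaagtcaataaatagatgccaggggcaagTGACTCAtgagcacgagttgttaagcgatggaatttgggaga
Itgax: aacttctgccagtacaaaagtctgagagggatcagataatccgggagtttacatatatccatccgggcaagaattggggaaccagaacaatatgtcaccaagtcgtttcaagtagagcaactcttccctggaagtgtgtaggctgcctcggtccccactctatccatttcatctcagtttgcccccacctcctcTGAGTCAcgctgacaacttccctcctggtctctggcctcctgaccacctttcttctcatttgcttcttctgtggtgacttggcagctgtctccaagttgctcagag
Mpeg1: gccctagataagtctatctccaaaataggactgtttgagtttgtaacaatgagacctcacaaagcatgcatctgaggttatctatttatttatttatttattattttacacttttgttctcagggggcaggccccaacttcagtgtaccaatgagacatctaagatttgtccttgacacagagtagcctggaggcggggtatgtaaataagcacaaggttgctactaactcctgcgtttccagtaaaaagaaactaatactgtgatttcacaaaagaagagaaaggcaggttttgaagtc
With the start base counted as 0, the element begins at position 8 in Gpnmb and at position -56 in Itgax. It stood in 2 of the 10 windows and in 5.20% of 32851 windows of all genes, TGACGTCA in 0 windows against 1.79%, and GAGGAA in 3 windows, of Trem2, Cd63 and Spp1, against 28.3%. A match is only a run of letters. The 2 genes with the AP-1 element were not among those called in either strain, and neither exceeded its controls without overlap. Both rest on few counts, and whether the element acts on any of these genes was not tested.

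Levels between genes were compared per length, as RPKM, which is CPM divided by the merged length of a gene's exons in kilobases. Spp1 was the highest of the 10 and Mpeg1 the second in every group. In Fra1 controls these means were 45.6 ± 7.52 for Spp1 and 20.1 ± 3.72 for Mpeg1 (SD, n = 3). Cd9 followed with 11.2 ± 0.688 RPKM, then Lgals3 with 2.29 ± 1.20, and none of these 4 overlapped its neighbour in that group. In the other 3 groups the ranges of Spp1 and Mpeg1 overlapped. The remaining 6 genes were below 1 RPKM in Fra1 controls, down to Trem2 with 0.102 ± 0.0307, and neighbours in the order overlapped in range. In Fra1 Atp6v0d2 moved most in this order, and in Fra2 it and Cd9 moved by 2 ranks each. Atp6v0d2 went from rank 6 with 0.463 ± 0.474 RPKM in Fra1 controls to rank 3 with 36.8 ± 26.96 in Fra1 mutants, and from rank 5 with 1.24 ± 0.236 in Fra2 controls to rank 3 with 14.5 ± 13.1 in Fra2 mutants. Of its neighbours in this order, its range overlapped those of Mpeg1 above it and Lgals3 below it in Fra1 mutants, and in Fra2 mutants that of Lgals3 but not that of Mpeg1. Gpnmb was the lowest of the 10 in both Fra2 groups.

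**Figure D1:**
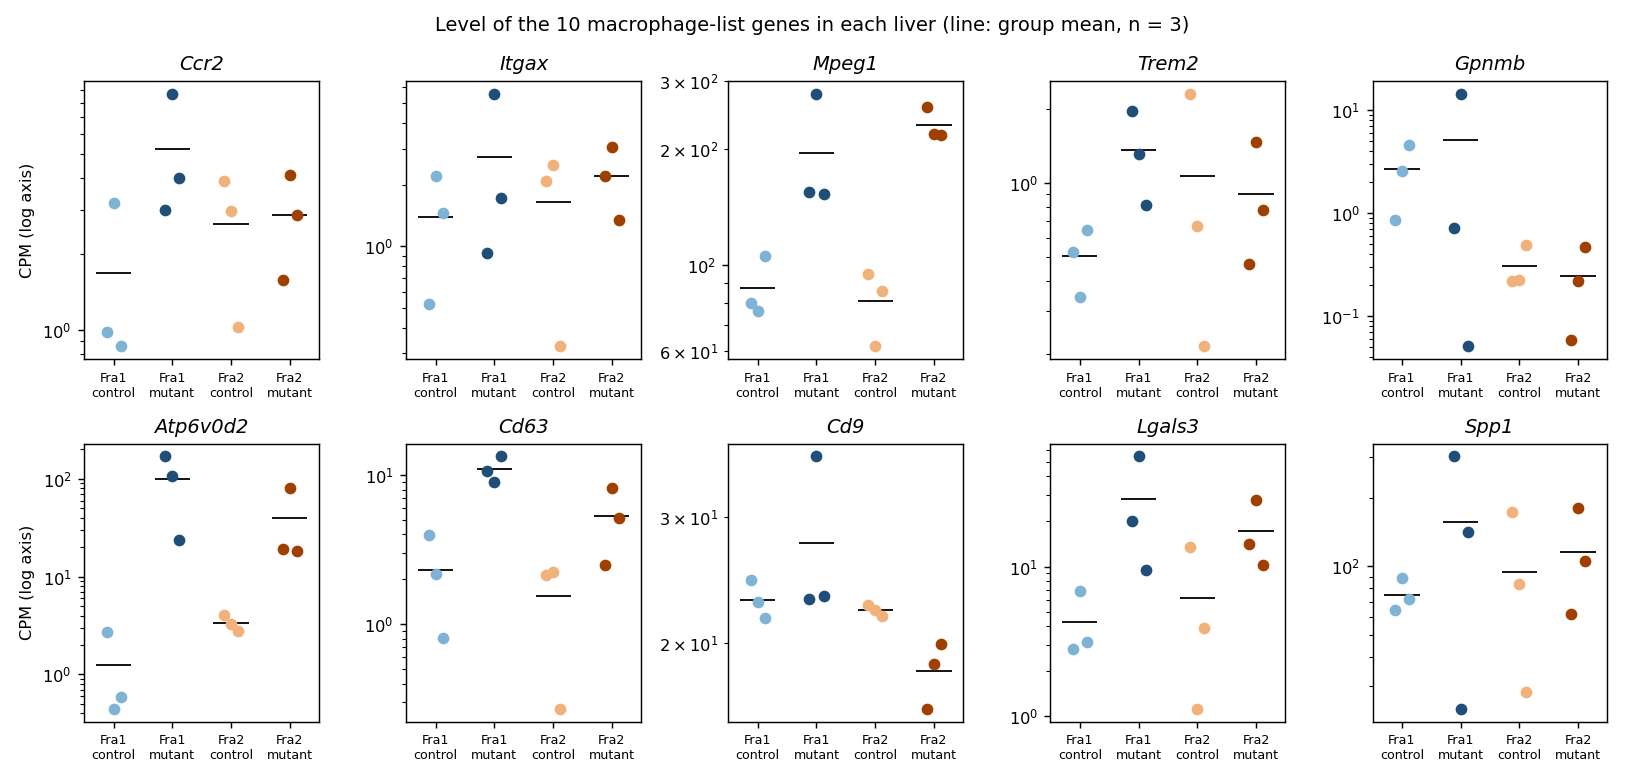
Level of each of the 10 genes in every liver, in CPM on a log axis that differs between panels; points are single livers of the 4 groups and the line is the mean of 3. The Mpeg1 points of both mutant groups lie above all control points, Atp6v0d2 separates in both strains, and the Spp1 points of mutants and controls overlap.

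Mpeg1 encodes perforin-2, a pore-forming protein that macrophages use against engulfed bacteria and to let antigens out of endosomes. The gene lies on chromosome 19 (12460779 to 12465283, plus strand, GRCm38). Its levels in Fra1 controls were 79.7, 76.2 and 106 CPM, and in Fra1 mutants 154, 278 and 153 CPM. In Fra2 controls they were 95.1, 61.6 and 85.8 CPM, and in Fra2 mutants 256, 218 and 218 CPM. Every mutant liver exceeded every control liver, also across the strains, and the widest spread was among Fra1 mutants. The log2 fold change was 1.16 ± 0.25 (SE) in Fra1 (edgeR adjusted p = 0.0228) and 1.51 ± 0.25 in Fra2 (adjusted p = 0.0165). Both calls are near the threshold. In Fra1 the adjusted p was 0.112 without Fra1 control 1 and 0.0966 without Fra1 control 2. In Fra2 it was 0.0679 without Fra2 control 2, 0.0637 without Fra2 control 3, and 0.0518, 0.0509 and 0.0535 without Fra2 mutants 1, 2 and 3. In size, it stayed between 0.82 and 1.31 in Fra1 and between 1.35 and 1.65 in Fra2 when any 1 library was left out. A fit on the libraries of Fra1 alone gave an adjusted p of 0.0780 in place of 0.0228.

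Most other markers shared by macrophages had smaller estimates than Mpeg1, and most lay above 0. Of 16 pan-macrophage and myeloid genes, 0 were called in either strain by edgeR (1 in each at an unadjusted p under 0.05, DESeq2 0 in Fra1 and 1 in Fra2, limma-voom 0 in both). Their median log2 fold change was 0.13 in Fra1 and 0.25 in Fra2, where the median of all genes was 0.01 and -0.01. In Fra1 12 of the 16 lay above 0, in Fra2 14, and in the mean of the strain effects 15, where 51.0%, 49.1% and 50.1% of all genes did. Their summed level was 199 to 391.7 CPM in Fra1 controls and 259 to 484 in Fra1 mutants, and 178 to 483 in Fra2 controls and 357 to 518 in Fra2 mutants. Csf1r, the receptor that keeps macrophages alive, stood at 37.8, 61.7 and 71.8 CPM in Fra1 controls and 62.0, 71.2 and 53.1 in Fra1 mutants. Csf1r stood at 98.9, 32.3 and 71.0 CPM in Fra2 controls and 82.5, 54.9 and 86.0 in Fra2 mutants, so that mutants and controls overlapped in both strains. Fra2 control 2 had the lowest summed level of these markers among the 12 livers and also the lowest Mpeg1. Larger estimates came from Cybb and Cd14. Cybb, the electron-carrying chain of the phagocyte oxidase, had log2 fold changes of 2.31 ± 1.01 (adjusted p = 0.290) and 1.38 ± 0.97 (adjusted p = 0.666). Cd14, a co-receptor for bacterial lipopolysaccharide, had 1.20 ± 0.57 (adjusted p = 0.322) and 2.21 ± 0.57 (adjusted p = 0.121). Of 12 Kupffer cell genes, which mark the resident macrophages of liver, 0 were called in either strain by edgeR (1 and 2 at an unadjusted p under 0.05, DESeq2 0 and 1, limma-voom 0 and 0), with medians of -0.10 and 0.16. Clec4f, a lectin specific to these cells in mice, had log2 fold changes of -0.13 ± 0.24 and 0.27 ± 0.24.

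Atp6v0d2 encodes the d2 form of a subunit in the membrane sector of the vacuolar proton pump, best known from osteoclasts, where it takes part in cell fusion. It lies on chromosome 4 (19876841 to 19922605, minus strand). It had 42, 9 and 11 counts in Fra1 controls and 3106, 2029 and 468 in Fra1 mutants, or 2.74, 0.442 and 0.591 CPM against 170, 107 and 23.7 CPM. In Fra2 it had 73, 59 and 51 counts in controls and 332, 1479 and 352 in mutants, or 4.03, 3.29 and 2.75 CPM against 19.4, 80.6 and 18.3 CPM. The lowest mutant exceeded the highest control several times over in both strains, and the mutants of one strain differed among themselves almost as widely. In Fra1 the log2 fold change was 6.39 ± 0.99 (adjusted p = 0.00500), and it remained called when any 1 library was left out, with values from 5.76 to 7.57. In Fra2 it was 3.55 ± 0.85 (adjusted p = 0.0987), with adjusted p between 0.0536 and 0.303 when 1 library was left out and 0.00576 by DESeq2. Without Fra2 mutant 2, the highest of that group, the log2 fold change was 2.48.

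Among the other subunits of the pump there was no call. Of 23 further subunit and accessory genes in the table, 19 passed the filter and 0 were called in either strain by edgeR (0 in Fra1 and 2 in Fra2 at an unadjusted p under 0.05, DESeq2 0 and limma-voom 0 in both). Their median log2 fold change was 0.03 in Fra1 and 0.16 in Fra2. In Fra2, 4 of the 19 were higher in every mutant than in every control, where 9.29% of all genes were. In Fra1 0 were, where 11.7% of all genes were. The summed level of the list was 829 to 848 CPM in Fra2 controls and 927 to 946 in Fra2 mutants, without overlap, and 907 to 1005 against 845 to 1112 in Fra1. Atp6v0d1, the form of the same subunit found in all tissues, stood at 95.1, 71.7 and 87.5 CPM in Fra1 controls and at 70.2, 82.0 and 80.2 in Fra1 mutants. Its log2 fold change was -0.13 ± 0.12 in Fra1 (adjusted p = 0.647) and 0.28 ± 0.12 in Fra2 (adjusted p = 0.404). Tcirg1, the a3 subunit that osteoclasts and macrophages use, had 0.14 ± 0.17 and -0.07 ± 0.17. Of 8 tested genes from a list of osteoclast-type genes and the MiT/TFE factors that drive lysosome genes, 0 were called in either strain by edgeR (0 at an unadjusted p under 0.05, DESeq2 0, limma-voom 0, in both), with medians of -0.08 and 0.41. Mitf, one of these factors, had 0.62 ± 0.29 in Fra1 (adjusted p = 0.322) and 0.43 ± 0.29 in Fra2 (adjusted p = 0.650).

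**Figure D2:**
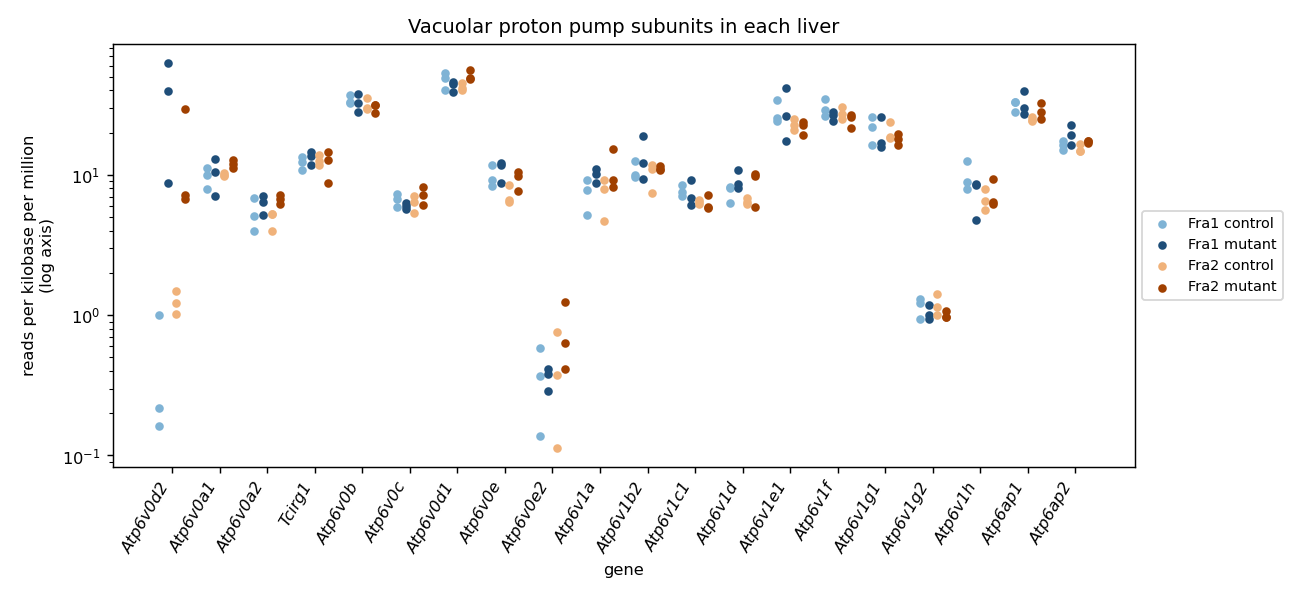
RPKM, on a log axis, of Atp6v0d2 and of the 19 other tested genes of the vacuolar proton pump, with 1 point per liver in the 4 groups. Atp6v0d2 is the gene whose mutant points lie far above its control points, and Atp6v0d1, the other form of the same subunit, has the highest mean of the 20 in every group.

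Ccr2 is the chemokine receptor by which inflammatory monocytes leave marrow and enter tissue, and Itgax encodes CD11c, the integrin chain of dendritic cells and of some tissue macrophages. Ccr2 (chromosome 9, 124101950 to 124113557, plus strand) had 15, 65 and 16 counts in Fra1 controls and 55, 165 and 79 in Fra1 mutants. It had 71, 53 and 19 in Fra2 controls and 27, 76 and 55 in Fra2 mutants. The groups overlapped in both strains. For Ccr2 the log2 fold change was 1.62 ± 0.64 in Fra1 (adjusted p = 0.223) and 0.12 ± 0.63 in Fra2 (adjusted p = 0.972). In Fra1 it was 1.04 without Fra1 mutant 2 and 2.50 without Fra1 control 2. Itgax (chromosome 7, 128129547 to 128150657, plus strand) had 8, 45 and 27 counts in Fra1 controls and 17, 106 and 34 in Fra1 mutants. It had 38, 45 and 6 in Fra2 controls and 38, 56 and 26 in Fra2 mutants. Its log2 fold change was 0.95 ± 0.77 in Fra1 (adjusted p = 0.593) and 0.42 ± 0.77 in Fra2 (adjusted p = 0.902), and in Fra1 it was -0.0888 without Fra1 mutant 2, the highest library. At these low counts the intervals of both genes were wide, from 0.22 to 3.02 for Ccr2 and from -0.74 to 2.65 for Itgax in Fra1 on the log2 scale.

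Genes around these receptors were measured with them. Of 11 tested myeloid chemoattractants and growth factors, 0 were called in either strain by edgeR (2 in Fra1 and 1 in Fra2 at an unadjusted p under 0.05, DESeq2 2 and 1, limma-voom 0 and 0). Ccl2, the main ligand of CCR2, stood at 0.653, 0.147 and 0.430 CPM in Fra1 controls and 1.86, 8.73 and 2.13 CPM in Fra1 mutants. Its log2 fold change there was 3.40 ± 0.98 (adjusted p = 0.0889), and in Fra2 it was 0.70 ± 0.86 (adjusted p = 0.829). Of 8 tested monocyte genes, 0 were called in either strain by edgeR (2 and 0 at an unadjusted p under 0.05, DESeq2 0, limma-voom 0), with medians of 0.56 and 0.01. Ly6c2, the surface marker of inflammatory monocytes, had 1.223 ± 0.36 in Fra1 (adjusted p = 0.0989) and 0.04 ± 0.38 in Fra2 (adjusted p = 0.986). The 3 tested partners and relatives of CD11c, Itgal, Itgam and Itgb2, had log2 fold changes from 0.12 to 0.47 in Fra1, with 0 called in either strain by edgeR (0 at an unadjusted p under 0.05, DESeq2 0, limma-voom 0).

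Trem2 encodes a receptor for lipids and lipoproteins that defines lipid-associated macrophages, and Gpnmb a glycoprotein of lysosomes and the cell surface found with it. Trem2 (chromosome 17, 48346401 to 48354147, plus strand) was among the least abundant of the 10, with 8, 7 and 12 counts in Fra1 controls and 36, 25 and 16 in Fra1 mutants. It had 42, 12 and 4 counts in Fra2 controls and 8, 27 and 15 in Fra2 mutants. The Fra1 mutants lay above their controls without overlap, and the Fra2 groups overlapped, with the highest of all 12 livers among the Fra2 controls. For Trem2 the log2 fold change was 1.43 ± 0.73 in Fra1 (adjusted p = 0.358) and -0.23 ± 0.69 in Fra2 (adjusted p = 0.945), where it was 1.03 without Fra2 control 1. Gpnmb (chromosome 6, 49036546 to 49070929, plus strand) had 13, 52 and 85 counts in Fra1 controls and 13, 275 and 1 in Fra1 mutants. It had 4, 4 and 9 counts in Fra2 controls and 1, 4 and 9 in Fra2 mutants. A single liver, Fra1 mutant 2, held most of the Gpnmb counts of its group. The log2 fold change was 0.92 ± 1.19 in Fra1 (adjusted p = 0.763) and -2.82 without that liver, and in Fra2 it was -0.29 ± 1.78 (adjusted p = 0.978). At these counts a difference of several fold in Gpnmb was not detectable, as its interval in Fra2 ran from -4.23 to 3.65 on the log2 scale.

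Tyrobp, the adaptor through which TREM2 signals, stood at 12.01, 10.8 and 10.6 CPM in Fra1 controls and 10.3, 20.4 and 13.95 in Fra1 mutants, with a log2 fold change of 0.41 ± 0.31 (adjusted p = 0.555). Of 9 tested partners and relatives of TREM2, 0 were called in either strain by edgeR (1 in each at an unadjusted p under 0.05, DESeq2 0, limma-voom 0). Among 20 further genes of lipid-associated and lysosomal macrophages, 0 rose in either strain and 1 fell, Fabp5 in Fra1 mutants (in Fra1, 6 at an unadjusted p under 0.05, DESeq2 4 and limma-voom 1 in either direction; in Fra2, 3, 2 and 0). Fabp5 encodes a fatty acid binding protein, and it went from 40.5, 25.8 and 27.9 CPM in Fra1 controls to 8.91, 18.2 and 11.5 in Fra1 mutants. Its log2 fold change was -1.28 ± 0.28 (adjusted p = 0.0284), and in Fra2 it was -1.07 ± 0.28 (adjusted p = 0.122). Of all genes, 0.938% were called lower in Fra1 mutants. In Fra1, 11 of the 20 lay above 0, where 51.0% of all genes did. Without overlap 2 were higher and 5 lower, where 11.7% and 10.0% of all genes were. Plin2, the coat protein of lipid droplets, stood at 471, 399 and 470 CPM in Fra1 controls and 220, 262 and 308 in Fra1 mutants, a log2 fold change of -0.76 ± 0.25 (adjusted p = 0.143). Lipa, the lysosomal acid lipase, had 0.86 ± 0.28 (adjusted p = 0.134). Lpl, lipoprotein lipase, stood at 142 CPM in Fra1 mutant 2, and in the other Fra1 mutants at 43.8 and 42.7, below the controls' 52.2, 53.1 and 57.4.

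Cd63 and Cd9 are tetraspanins, membrane proteins that organise partners into patches, CD63 mainly on late endosomes and lysosomes and CD9 on the cell surface. Cd63 (chromosome 10, 128900989 to 128912822, plus strand) stood at 3.98, 2.16 and 0.807 CPM in Fra1 controls and at 10.7, 9.00 and 13.3 in Fra1 mutants. In Fra2 it stood at 2.15, 2.23 and 0.270 CPM in controls and at 2.51, 8.23 and 5.14 in mutants. Mutants lay above controls without overlap in both strains, by a narrow margin in Fra2. For Cd63 the log2 fold change was 2.26 ± 0.67 in Fra1 (adjusted p = 0.0957) and 1.77 ± 0.68 in Fra2 (adjusted p = 0.335). In Fra1 it passed with DESeq2 (adjusted p = 0.0119), with limma-voom (0.0496) and without Fra2 control 3 (0.0438). Cd9 (chromosome 6, 125460266 to 125494791, minus strand) was the steadiest of the 10, at 24.5, 22.8 and 21.7 CPM in Fra1 controls and 23.0, 36.5 and 23.3 in Fra1 mutants. It stood at 22.6, 22.3 and 21.8 CPM in Fra2 controls and 16.2, 18.7 and 19.9 in Fra2 mutants, which all lay below their controls. Its log2 fold change was 0.26 ± 0.17 in Fra1 (adjusted p = 0.471) and -0.28 ± 0.17 in Fra2 (adjusted p = 0.588). Cd9 overlaps Gm26728 on the other strand, and whether the counting used strand was not given in the sources used here.

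Of 21 other tetraspanin genes, 1 rose in Fra1 mutants, Tspan9, where 2.90% of all genes rose. In Fra2 0 were called by edgeR (2 at an unadjusted p under 0.05, DESeq2 1, limma-voom 0). Tspan9 went from 38.4, 40.2 and 34.95 CPM in Fra1 controls to 59.7, 84.6 and 69.0 in Fra1 mutants, a log2 fold change of 0.91 ± 0.15 (adjusted p = 0.00675). Cd151, a laminin-receptor partner, had 0.46 ± 0.12 in Fra1 (adjusted p = 0.0644) and 0.57 ± 0.12 in Fra2 (adjusted p = 0.0544).

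Lgals3 encodes galectin-3, a sugar-binding protein of macrophages and damaged lysosomes, and Spp1 encodes osteopontin, a secreted ligand of integrins and CD44. Lgals3 (chromosome 14, 47367751 to 47386160, plus strand) stood at 2.81, 6.82 and 3.12 CPM in Fra1 controls and at 20.2, 54.5 and 9.54 in Fra1 mutants. In Fra2 it stood at 13.5, 1.12 and 3.88 CPM in controls and at 14.1, 27.8 and 10.3 in mutants. The Fra1 groups did not overlap, and in Fra2 one control lay among the mutants. The log2 fold change of Lgals3 was 2.71 ± 0.86 in Fra1 (edgeR adjusted p = 0.127, DESeq2 0.0405) and 1.49 ± 0.82 in Fra2 (edgeR adjusted p = 0.552). It ranged from 1.79 without Fra1 mutant 2 to 3.24 without Fra1 control 2 in Fra1, and from 0.98 without Fra2 mutant 2 to 2.79 without Fra2 control 1 in Fra2. Of 6 other tested galectin genes, 0 were called in either strain by edgeR (3 in Fra1 and 1 in Fra2 at an unadjusted p under 0.05, DESeq2 0, limma-voom 0), with medians of 0.09 and 0.02.

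Spp1 (chromosome 5, 104435118 to 104441050, plus strand) stood at 64.5, 88.7 and 72.0 CPM in Fra1 controls and at 303, 23.7 and 141 in Fra1 mutants. In Fra2 it stood at 173, 83.4 and 28.2 CPM in controls and at 62.2, 180 and 106 in mutants. The groups overlapped in both strains, and Fra1 mutant 2, highest for several other genes, was the lowest of all 12 livers for Spp1. Its log2 fold change was 1.05 ± 0.79 in Fra1 (adjusted p = 0.561) and 0.29 ± 0.78 in Fra2 (adjusted p = 0.938). In Fra1 it was 0.13 without Fra1 mutant 1, 1.56 without Fra1 mutant 2 and 0.44 with limma-voom. In Fra2 it ran from -0.18 without Fra2 mutant 2 to 1.05 without Fra2 control 1. Spp1 overlaps Gm42793 on the same strand, and how shared reads were assigned was not given in the sources used here. Among 9 tested receptors and relatives of osteopontin, 5 were higher in Fra1 mutants without overlap, where 11.7% of all genes were. By edgeR's test 2 of the 9 rose in Fra1 mutants, where 2.90% of all genes did. They were Itgb5 (log2 fold change 0.95 ± 0.13, adjusted p = 0.00152) and Itgav (0.82 ± 0.18, adjusted p = 0.0257). Their proteins pair as the integrin alpha-v beta-5, which binds osteopontin and vitronectin. In Fra2 mutants Itgb5 had 0.52 ± 0.13 (adjusted p = 0.0911) and Itgav 0.57 ± 0.18 (adjusted p = 0.203), with 0 of the 9 called by edgeR (3 at an unadjusted p under 0.05, DESeq2 1, limma-voom 0). Cd44, a receptor of osteopontin that is not an integrin, had 0.44 ± 0.63 and 0.46 ± 0.63.

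Side by side, all 10 genes had a log2 fold change above 0 in Fra1 and 7 of 10 in Fra2, with medians of 1.30 and 0.36, where 51.0% and 49.1% of all genes lay above 0. In Fra1, 5 of the 10 (Mpeg1, Trem2, Atp6v0d2, Cd63 and Lgals3) were higher in every mutant than in every control, against 11.7% of all genes. In Fra2 this held for 3 (Mpeg1, Atp6v0d2 and Cd63), against 9.29% of all genes, and Cd9 was lower without overlap, as were 8.18% of all genes.

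**Figure D3:**
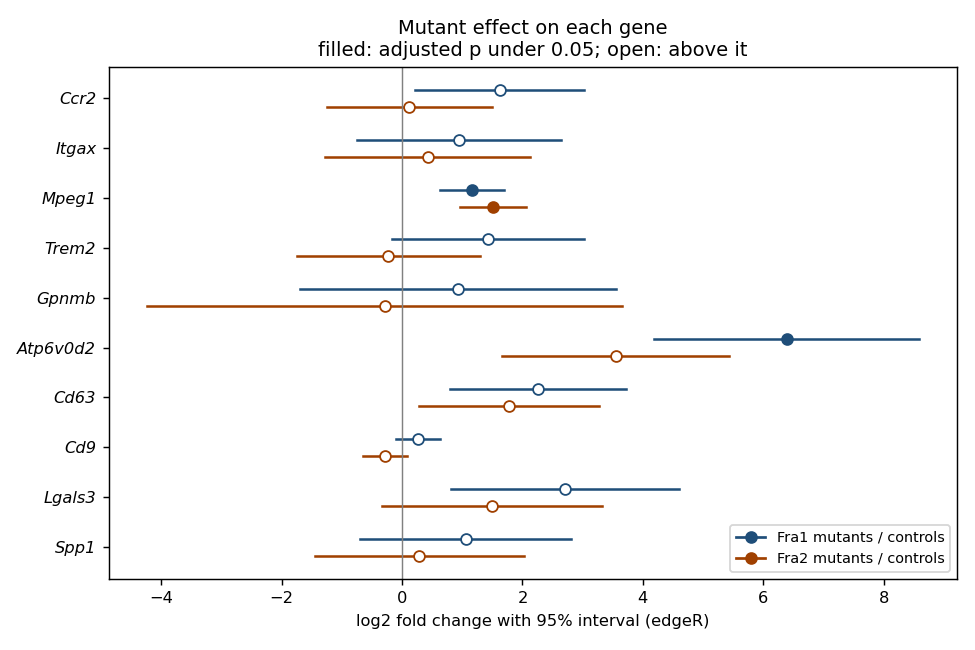
Log2 fold change of each gene in Fra1 and Fra2 mutants against their own controls, with the 95% interval from edgeR; filled points have an adjusted p under 0.05. Mpeg1 is filled in both strains and Atp6v0d2 in Fra1, where its value is 6.39, and the intervals of Gpnmb, Itgax and Spp1 include 0 in both.

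The mean of the strain effects, which uses 6 mutants and 6 controls, called 3 of the 10 higher, where 4.33% of all genes were called higher. They were Mpeg1 (log2 fold change 1.34 ± 0.17, edgeR adjusted p = 0.000907), Atp6v0d2 (4.97 ± 0.66, adjusted p = 0.00117) and Cd63 (2.02 ± 0.48, adjusted p = 0.0293). Mpeg1 and Atp6v0d2 stayed called when any 1 library was left out. Cd63 did not, with an adjusted p from 0.0524 to 0.0776 without any of Fra1 controls 2 and 3, Fra1 mutants 1 and 3 and Fra2 mutants 2 and 3. Lgals3 had 2.10 ± 0.59 (adjusted p = 0.0674), and 0.0207 without Fra2 control 1. Of 210 comparison genes from the lists described below, this mean called 10 higher and 2 lower, or 5.71%, where 6.24% of all genes were called. They include Cd14 among the pan-macrophage markers (1.71 ± 0.40, adjusted p = 0.0293) and C6, a complement protein, among the Kupffer cell genes (0.62 ± 0.14, adjusted p = 0.0232). C6 was the 1 call among the 12 Kupffer cell genes, of which 6 lay above 0, where 50.1% of all genes did. The median of those 12 was 0.02.

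A test of the difference between the strains' effects called 0 of the 10 by edgeR (2 at an unadjusted p under 0.05, DESeq2 0, limma-voom 0), where 0.0355% of all genes were called. The difference, Fra2 minus Fra1, was -2.83 ± 1.24 for Atp6v0d2 (adjusted p = 0.766, 95% interval -5.57 to -0.10) and -0.55 ± 0.24 for Cd9 (adjusted p = 0.750). For Mpeg1 it was 0.35 ± 0.34, with a 95% interval from -0.40 to 1.10, so a larger effect in either strain lies within it. The other 7 genes had differences from -1.66 to -0.49. Between the control groups 0 of the 10 were called by edgeR (0 at an unadjusted p under 0.05, DESeq2 0, limma-voom 0), where 0% of all genes were called. Atp6v0d2 was higher in Fra2 controls than in Fra1 controls without overlap (1.49 ± 0.99, adjusted p = 0.868), as were 5.28% of all genes. Gpnmb was lower without overlap (-3.08 ± 1.46, adjusted p = 0.866), as were 4.83%. Both strain comparisons for Gpnmb and Atp6v0d2 thus start from control levels that did not overlap.

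Beyond the 10 genes, 20 lists of markers and related genes were read in the same fit. They named 252 distinct genes, of which 250 were in the table and 210 were tested. In Fra1 mutants 5 of the 210 rose and 1 fell, together 2.86%, where 3.84% of all genes were called (36 at an unadjusted p under 0.05, DESeq2 14, limma-voom 6). In Fra2 mutants 0 were called by edgeR, where 1.07% of all genes were called (24 at an unadjusted p under 0.05, DESeq2 9, limma-voom 0). The 5 were Tspan9, Itgav and Itgb5, described above, and Dcn and Lum, proteoglycans of stellate cells and fibroblasts. Dcn had a log2 fold change of 0.86 ± 0.12 (adjusted p = 0.00239) and Lum 1.33 ± 0.23 (adjusted p = 0.00819) in Fra1. The summed level of the 12 stellate cell and fibroblast genes was 279 to 380 CPM in Fra1 controls. It was 444 to 587 in Fra1 mutants, without overlap. In Fra2 it was 361 to 478 CPM in controls and 303 to 437 in mutants, with overlap. Whether these transcripts have a part in the values of the 10 genes was not tested.

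**Figure D4:**
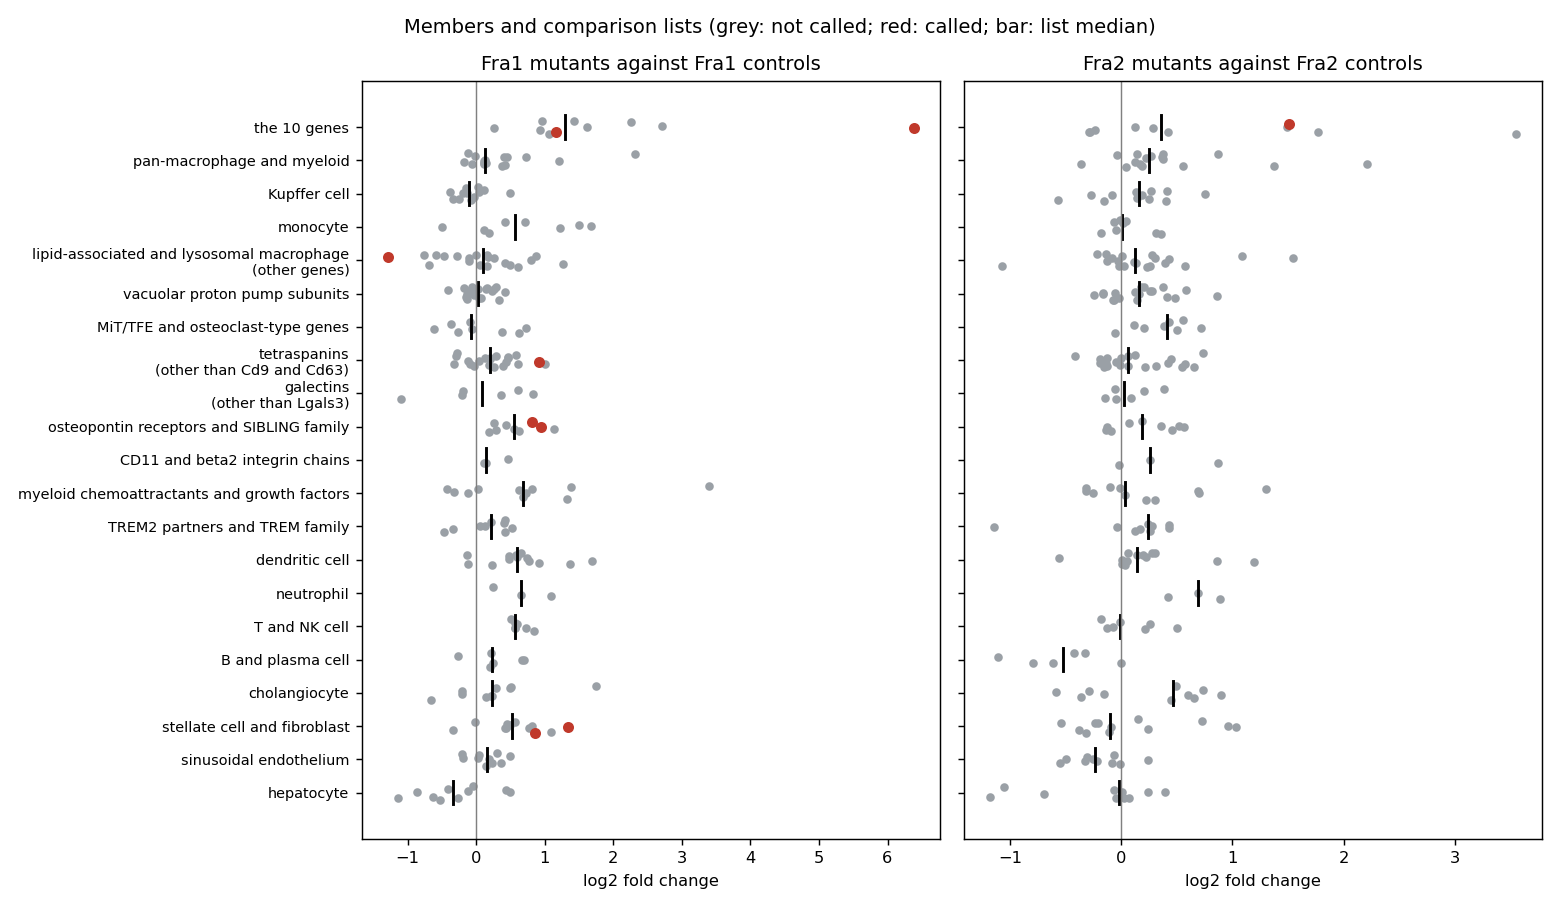
Log2 fold change of each tested gene in Fra1 (left) and Fra2 mutants (right) for the 10 genes and for 20 lists; red points passed edgeR's test, grey points did not, and the bar is the list's median. The 10 genes have a median of 1.30 in Fra1 and 0.36 in Fra2, and the pan-macrophage list lies at 0.13 and 0.25.

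Livers of one group differed widely, and the 10 genes did not vary from liver to liver as 1 block. Fra1 mutant 2 was the highest of all 12 livers for 6 of the 10 genes (Ccr2, Itgax, Mpeg1, Gpnmb, Cd9 and Lgals3) and the lowest for Spp1. In that liver the summed level of 13 dendritic cell genes was 666 CPM, against 183 to 348 CPM in the other 11, and that of 11 T and NK cell genes was 16.0 against 6.98 to 11.5. Its part in the values of the 6 genes was not tested beyond leaving the liver out. To describe this spread, each group's mean log2 CPM was subtracted and the deviations of the 12 livers were correlated. The livers share their depth and composition between genes, so these values are a description. Over the 45 pairs of the 10 genes the median Pearson r was 0.32, and over all pairs of 12782 tested protein-coding genes it was 0.000212.

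Ccr2 and Itgax deviated together (r = 0.80, n = 12 livers), as did Gpnmb and Cd9 (0.77) and Mpeg1 and Gpnmb (0.70). Fra1 mutant 2 had the largest deviation in size for Gpnmb (3.56), Mpeg1 (0.57), Cd9 (0.44) and Spp1 (-2.08). The correlations given here were not recomputed without that liver. Mpeg1 followed most the mean of 9 partners and relatives of TREM2 (0.95), then that of the pan-macrophage list (0.82). Trem2 itself had 0.17 with that list of partners and relatives, and 0.14 with Mpeg1. Cd9 followed most the mean of the 20 further lipid-associated and lysosomal macrophage genes (0.92), then that of the dendritic cell list (0.90). It also had 0.63 with the hepatocyte list. With the same 20 genes Gpnmb had 0.60, Trem2 0.13 and Spp1 -0.49. Spp1 stood apart. It ran against Mpeg1 (-0.59), Cd9 (-0.57) and Gpnmb (-0.56), had -0.28 with the pan-macrophage list, and followed the mean of 10 tested cholangiocyte genes, the markers of bile duct cells (0.98). The sum of the 12 cholangiocyte genes listed was 93.8, 47.6 and 73.3 CPM in Fra1 mutants, in the same order of livers as Spp1, with the lowest again in Fra1 mutant 2. Cd63 and Atp6v0d2, which separated mutants from controls in both strains, had -0.56 and -0.21 with the pan-macrophage list and -0.57 and -0.38 with the Kupffer cell list. With the monocyte list Cd63 and Atp6v0d2 had 0.46 and 0.40. They had 0.48 and 0.09 with the cholangiocyte list, and 0.35 and 0.40 with the stellate cell and fibroblast list. With the 20 further lipid-associated and lysosomal macrophage genes they had 0.37 and 0.34. Trem2 followed the monocyte list most (0.80).

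By the same measure, the 3 protein-coding genes most like each gene were listed, out of 12782 tested. For Mpeg1 they included Rcor1 (r = 0.96) and Abcg1, a cholesterol exporter (0.96). For Spp1 they were Dcdc2a (0.98), Slc4a3 (0.98) and Nipal2 (0.97). For Atp6v0d2 they were Rock2 (0.94), Zfp449 (0.93) and Bend7 (0.91), and for Trem2 Cygb (0.98), Capn6 (0.94) and Entpd2 (0.92). With 12 livers and 12782 genes, values of this size can arise for many genes, and they describe these livers alone.

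**Figure D5:**
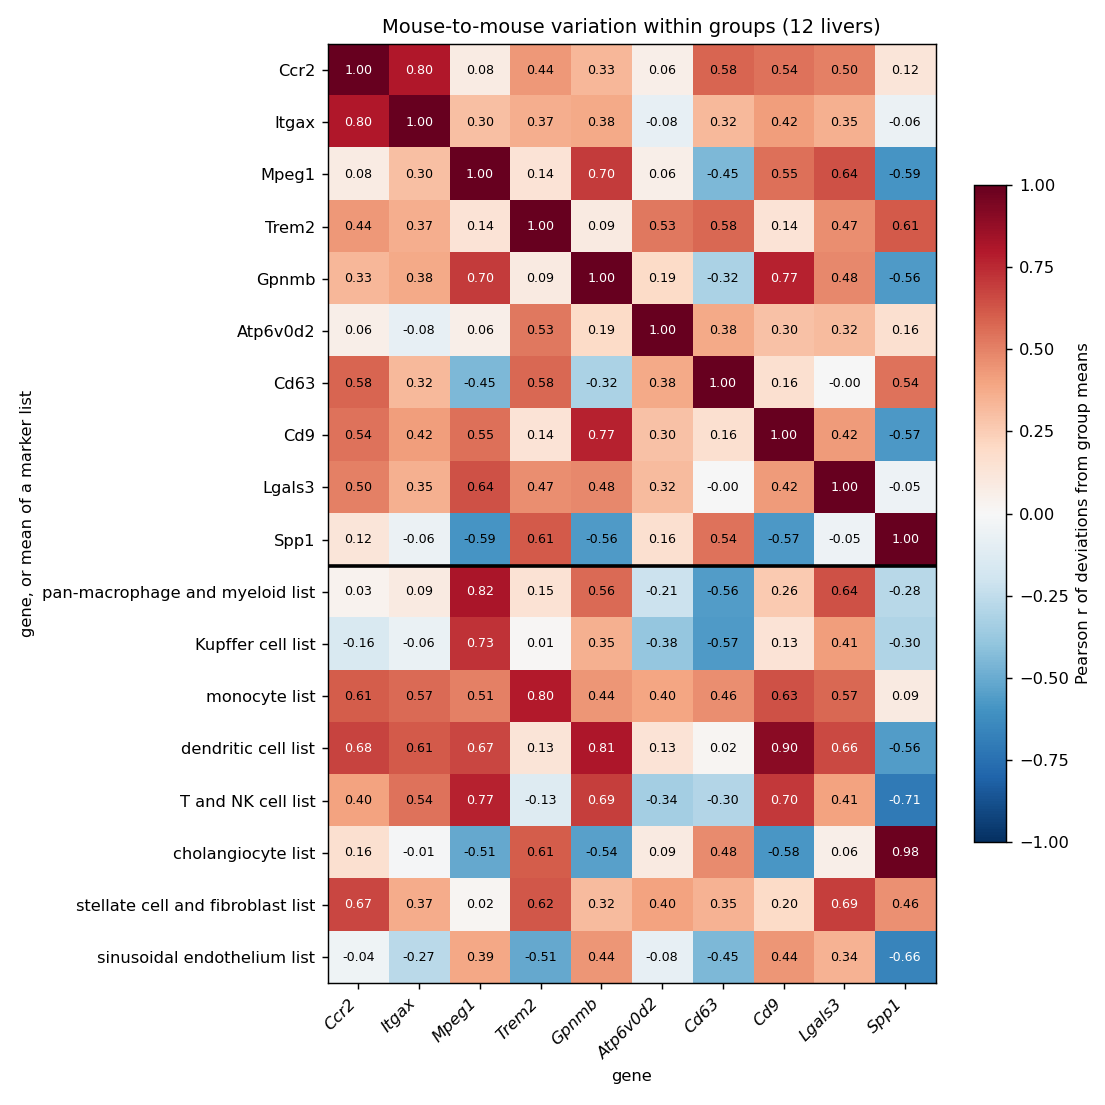
Pearson r, over 12 livers, of deviations from group means in log2 CPM, between the 10 genes (above the line) and between each gene and the mean of a marker list (below it). Spp1 is near 1 with the cholangiocyte list (0.98) and below 0 with Mpeg1 (-0.59), whereas Mpeg1 is high with the pan-macrophage list (0.82).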

How the data were processed

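Polyadenylated RNA of 12 livers was read with stranded libraries, per the labels' protocols. The authors deposited whole-number counts per gene, not normalized. The submitters' processing notes name DESeq2 1.22.2, bedtools 2.27.1, RSEM, STAR 2.6.1a and the build GRCm38 (mm10). Which tool counted, the annotation release and the strand setting were not given in the sources used here. Groups came from the titles, and the mice are separate littermates. The 10 genes and the comparison lists were chosen with earlier results of these data known. All 10 are named, with up to 4 called genes per list, others where their list is described, and genes from the 3 most like each of the 10, of which 1 is not reported here.

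Here R 4.3.3 with edgeR 4.0.16 kept genes by filterByExpr, applied TMM factors, and fitted 4 group means to 12 libraries by the robust quasi-likelihood model, with two-sided tests; a call needed an adjusted p (Benjamini-Hochberg) under 0.05. SEs were derived from the test statistic. CPM used TMM-scaled library sizes, and deviations used a prior count of 2. Exon lengths and positions are from GENCODE M21, promoter windows from RefSeq. Results were recomputed with limma-voom (limma 3.58.1), with DESeq2 1.42.0, with RLE or no scaling factors, without a filter or with at least 1 CPM in 3 libraries, with a replicate block, without robust estimation, on 1 strain's libraries, and with each library left out. The code was tested on simulated data. No 2 libraries of a group agreed within sampling noise. PCR copies cannot be told from separate molecules.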

Additional observations from a re-analysis of the deposited data

How the results depend on the processing

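Of the 10 genes, 2 were called in Fra1 mutants, with 4 by DESeq2, 1 with only that strain's libraries, and 1 to 3 when single libraries were left out. In Fra2 mutants 1 was called, with 2 by DESeq2 and 0 to 1 when single libraries were left out. The mean of the effects gave 3, and 2 to 4 with a library left out. The difference of the effects and the controls gave 0 under every alternative run. Replicate numbers did not pair the samples: the correlation of deviations between livers of the same number was -0.07, 0.05 and 0.05 in Fra1 and 0.06, 0.03 and -0.12 in Fra2. With the number as a block the Fra1 count was 1, since the adjusted p of Mpeg1 became 0.0659, and over all genes the block called 288 higher and 83 lower in Fra1 against 408 and 132, and 78 and 20 in Fra2 against 119 and 31.

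Log2 fold changes that turned sign were those of genes far from the threshold. Gpnmb in Fra1 was -1.31 with limma-voom, -0.42 with the replicate block and from -2.82 to 1.53 with a library left out, and Itgax in Fra1 was from -0.0888 to 1.45. In Fra2, Trem2 was 0.21 with limma-voom, 0.12 with the replicate block and from -0.76 to 1.03 with a library left out. Over the same omissions Ccr2 in Fra2 was from -0.26 to 0.52, Itgax from -0.0640 to 0.86, Gpnmb from -1.11 to 0.18 and Spp1 from -0.18 to 1.05. The difference of the effects was 0.0492 for Itgax, 0.80 for Gpnmb and 0.0736 for Spp1 with limma-voom, and 0.0384 for Gpnmb and 0.0417 for Spp1 with the replicate block. With a library left out it was from -1.03 to 0.51 for Itgax, from -2.03 to 2.52 for Gpnmb, from -1.28 to 0.15 for Spp1 and from -1.75 to 0.0812 for Lgals3. The cause of these turns was not tested.

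The Cd63 call in the mean of the effects had an adjusted p of 0.0990 without a filter on low counts and 0.0760 with the replicate block, and Lgals3 passed there by DESeq2 (0.0145) and with no scaling factor (0.0479). Without a scaling factor the median of all genes in Fra1 moved from 0.01 to 0.15, with 86.9% of the called genes higher against 75.6%, and in the mean of the effects 83.4% against 69.5%. DESeq2 called 678 genes higher and 343 lower in Fra1, and 315 and 133 in Fra2. With only its own strain's libraries Fra2 gave 71 higher and 19 lower. Trem2, Itgax, Ccr2 and Gpnmb rest on few counts, which limits what their comparisons can show.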
